A study of Mus musculus with 6 samples.

Results

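The genes described here encode 8 adhesion molecules of the immunoglobulin type: Icam1, Icam2, Vcam1, Alcam, Mcam, Cadm1, Ncam1 and F11r. The rule takes them by symbol from the 27507 gene identifiers of the deposited table, and all 8 were found. The table gives RNA-seq of L929 cells, a mouse fibroblast line, in 3 libraries labelled STING KO and 3 control libraries whose genotype label is WT. STING is an endoplasmic reticulum adaptor of cytosolic DNA sensing that signals to IRF3 and NF-kB. Both groups are L929 cells, the labels name no treatment for either, and they do not say whether the knockout is 1 clone or whether replicates are separate cultures. P-values therefore measure only the spread between these libraries, which may be technical.

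Immunoglobulin-type adhesion molecules are surface proteins with stacked extracellular immunoglobulin domains, a membrane anchor and usually a short cytoplasmic tail that binds the cytoskeleton or scaffold proteins. ICAM1, ICAM2 and VCAM1 bind leukocyte integrins, while the others chiefly bind copies of themselves or relatives on neighbouring cells. Icam1 and Vcam1 are textbook NF-kB target genes that cytokines induce in endothelial cells and fibroblasts, which is why they are set against relatives that are not known chiefly as such targets.

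The promoter windows of the gene at the bottom and the gene at the top of the order of levels given below are shown. The first of them, Icam1, carries the only NF-kB-type motif that was searched. Each window runs from 250 bases before to 50 bases after the RefSeq gene start (GRCm38.p6) and is printed 5′ to 3′ on the gene's own strand, with any match in capitals.
Icam1, chr9:21015690-21015989, plus strand: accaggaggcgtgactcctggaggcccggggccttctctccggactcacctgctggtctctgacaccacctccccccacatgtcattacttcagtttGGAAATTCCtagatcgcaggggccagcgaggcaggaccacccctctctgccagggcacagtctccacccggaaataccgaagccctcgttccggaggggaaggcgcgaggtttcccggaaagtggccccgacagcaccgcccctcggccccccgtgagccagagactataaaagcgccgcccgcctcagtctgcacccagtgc
F11r, chr1:171437311-171437610, plus strand: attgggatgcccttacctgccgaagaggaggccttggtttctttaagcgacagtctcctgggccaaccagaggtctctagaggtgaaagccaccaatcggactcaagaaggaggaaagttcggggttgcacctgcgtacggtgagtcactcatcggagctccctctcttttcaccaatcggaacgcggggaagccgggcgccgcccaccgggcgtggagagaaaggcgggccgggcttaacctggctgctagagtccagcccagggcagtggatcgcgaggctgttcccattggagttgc

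The Icam1 window held GGAAATTCC, the core of the known NF-kB element of this promoter, on the plus strand, with its first base 153 bases before the start. It was searched on both strands. RefSeq windows were at hand for 4 of the 8 genes, and those of F11r, Mcam and Alcam held no match. Since the motif was the known element of Icam1, its match there was fixed beforehand. Other NF-kB motifs were not searched, so the lack of a match does not show a lack of NF-kB-type sites. Of 32851 windows of this length, 0.317% held GGAAATTCC. A match in these letters is a description of the window and not evidence of binding. The genes without a window were Vcam1, Icam2, Cadm1 and Ncam1.

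None of the 7 genes that could be tested was called changed in STING KO, and Icam1, an NF-kB target and the gene too low to test, was hardly expressed in either group. Vcam1 had the largest difference, at 70.4% of the control level, and did not pass the test. Icam2 was at 119% of control and did not pass it either. The remaining 5 genes lay between 98.9% (Alcam) and 107% (Mcam) of control. The test was limma on log2(normalized count + 0.1), with Benjamini-Hochberg adjustment over 12408 genes. Only genes that reached 10 in 3 or more libraries entered it, as 7 of the 8 did. A normalized count is the authors' gene count divided by a size factor of the library, and library totals ran from 14382072 to 14526606. In this fit 0.258% of genes were called at an adjusted p at or under 0.05, all of them lower in STING KO, against 0 of the 7 genes tested here. Before adjustment, 1 of the 7, Vcam1, had a limma p at or under 0.05 with STING KO lower, as had 3.18% of all genes tested; 3.2% had one with STING KO higher. In the authors' deposited table all 8 have an adjusted p of 1, where 0.294% of genes are at or under 0.05. These were 41 genes, 35 lower and 6 higher in STING KO. Before adjustment the authors' Wald test gave Vcam1 a p of 0.053, which is above 0.05.

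The libraries carried their labels' pattern at the targeted gene. Sting1 (listed as Tmem173) had 82.1, 80.6 and 93.4 normalized counts in STING KO and 329, 313 and 311 in control. Of 11 fibroblast markers 10 reached the minimum, with Col1a1, a collagen I chain, at 11196 to 12691 in STING KO and 10264 to 11689 in control. The other, Dcn, the proteoglycan decorin, had 32.7 in STING KO replicate 1 and 94.4 in control replicate 3, against 0 to 4.99 in the other 4 libraries. Endothelial markers, the cells in which ICAM2 and VCAM1 are best known, were near the bottom of the range: the 8 markers summed to 95.6 to 98.0 in STING KO and 80.8 to 92.8 in control, most of it Vwf, with Cldn5 at 0 in all libraries and Cdh5 at 0 to 4.97. The 9 macrophage and leukocyte markers summed to 831 to 947 in STING KO and 749 to 920 in control, most of it Cd68. The 10 hepatocyte markers summed to 4994 in STING KO replicate 1 and 5283 in control replicate 3. They summed to 631 in STING KO replicate 2 and 597 in control replicate 1, and to 273 in STING KO replicate 3 and 236 in control replicate 2. Their part in the values below was not tested. The fit of the 7 tested genes and the within-library ratios of Vcam1 were also made without STING KO replicate 1 and control replicate 3. That leaves the smaller differences among the other libraries in place. In bulk RNA, fewer cells expressing a gene and less RNA per cell cannot be told apart.

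Among the integrin ligands, Icam1 encodes ICAM1, the ligand of LFA-1 and Mac-1 through which leukocytes attach and migrate. Icam1 (ENSMUSG00000037405, chromosome 9, 21015985 to 21028817 on the plus strand in GRCm38, protein coding) had 7.92, 2.99 and 3.01 normalized counts in STING KO libraries and 3.99, 1.995 and 3.97 in control libraries. Divided by the smallest step of each column, these are 8, 3 and 3 in STING KO and 4, 2 and 4 in control, taken here as reads. STING KO replicate 1 was above all others, and the remaining 5 libraries overlapped. That library is also one of the pair with the highest hepatocyte marker sums.

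The summed reads of Icam1 were 14 in STING KO and 10 in control, a ratio of 1.4 with an exact 95% interval of 0.578 to 3.52 that covers counting error only. At this depth the interval holds both a decrease and an increase. Without the minimum on values, Icam1 entered limma at 0.38 on the log2 scale (SE 0.61, adjusted p = 0.847). Of its neighbours in the Icam cluster on chromosome 9, Icam4, the red cell ICAM, was listed at 0 in all 6 libraries. Icam5, known as the telencephalic ICAM of neurons, had 43.5, 44.8 and 46.2 normalized counts in STING KO and 43.9, 48.9 and 39.7 in control, and was not called.

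Vcam1 encodes VCAM1, the ligand of the integrin VLA-4 (alpha 4 beta 1). Vcam1 (ENSMUSG00000027962, chromosome 3, 116109949 to 116129688 on the minus strand, protein coding) had 63.3, 63.7 and 53.2 normalized counts in STING KO libraries and 85.9, 63.8 and 106 in control libraries. The STING KO libraries were all below the control libraries, but control replicate 2 stood next to them. Divided by the step and taken as reads, the values were 64, 64 and 53 in STING KO and 86, 64 and 107 in control. Control replicate 2 was then level with STING KO replicates 1 and 2. The gap between them in normalized counts would then be that of their size factors.

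Vcam1 averaged 60.1 ± 5.96 normalized counts in STING KO and 85.3 ± 21.2 in control (SD, n = 3 each). The difference was -0.48 on the log2 scale (SE 0.19, limma adjusted p = 0.738), with a 95% interval of 0.536 to 0.96 times the control level. Groups that did not overlap, with STING KO lower, were found for 6.32% of all genes tested. Without STING KO replicate 1 and control replicate 3 the log2 fold change was -0.35 (adjusted p = 1), and without control replicate 3 alone, the library with the highest value, it was -0.31 (adjusted p = 0.996). Without control replicate 2 it was -0.67 (adjusted p = 0.347), so the size of the difference moved with which control library was left out.

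**Figure D1:**
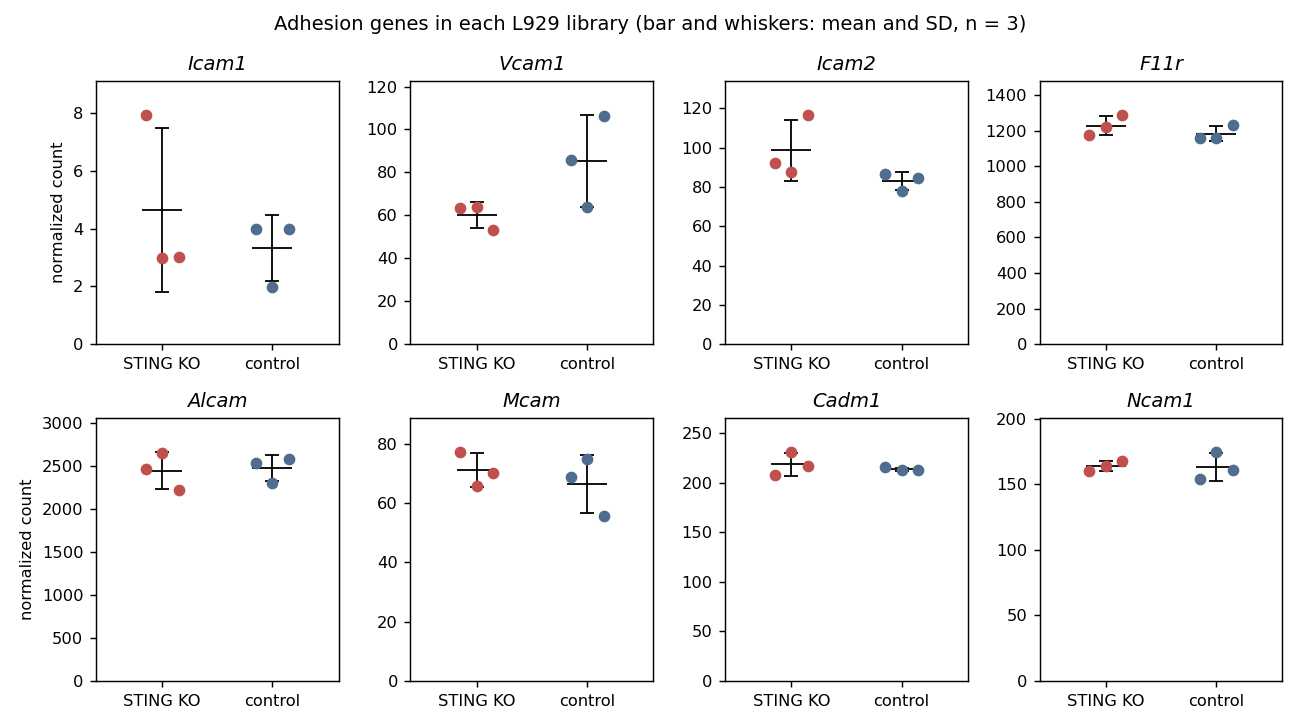
Normalized counts (vertical axes, each starting at 0) of the 8 genes in the STING KO libraries and, to their right, the control libraries; points are libraries, the bar and whiskers are mean and SD (n = 3 each). Icam1 stays under 8 everywhere, and the Vcam1 control libraries spread from 63.8 to 106. All STING KO libraries of Icam2 lie above its control libraries, and the remaining genes overlap between groups.

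Icam2 encodes ICAM2, a second LFA-1 ligand found constitutively on endothelium and platelets. Icam2 (ENSMUSG00000001029, chromosome 11, 106377656 to 106388075 on the minus strand, protein coding) had 92.0, 87.6 and 116 normalized counts in STING KO libraries and 86.9, 77.8 and 84.4 in control libraries. All STING KO libraries lay above all control libraries, with STING KO replicate 3 the highest and replicate 2 less than 1 count above control replicate 1. The means were 98.7 ± 15.5 in STING KO and 83.0 ± 4.69 in control (SD, n = 3 each), which is 0.24 on the log2 scale (SE 0.13, limma adjusted p = 0.738). Without STING KO replicate 3 it was 0.11 (adjusted p = 0.999). Of all genes tested, 5.76% had groups that did not overlap with STING KO higher. The 2 genes without overlap thus differed in opposite directions, and neither was called.

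F11r and Alcam were the most abundant members. F11r encodes junctional adhesion molecule A, a tight junction protein that binds itself and LFA-1. F11r (ENSMUSG00000038235, chromosome 1, 171437535 to 171464603 on the plus strand, protein coding) had 1176, 1224 and 1286 normalized counts in STING KO libraries and 1158, 1159 and 1231 in control libraries. The groups overlapped, and the log2 fold change was 0.05 (SE 0.06, limma adjusted p = 0.787), with a 95% interval of 0.95 to 1.14 times control.

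Alcam encodes ALCAM (CD166), which binds itself and the T cell receptor CD6. Alcam (ENSMUSG00000022636, chromosome 16, 52248996 to 52454074 on the minus strand, protein coding) had 2469, 2654 and 2222 normalized counts in STING KO libraries and 2535, 2303 and 2588 in control libraries. The groups overlapped over nearly their whole range. The log2 fold change was -0.02 (SE 0.07, limma adjusted p = 0.946), with a 95% interval of 0.881 to 1.11 times control, which was narrower only for F11r.

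The other homophilic members lay on chromosome 9 and also overlapped between groups. Mcam, encoding MCAM (CD146) of pericytes, endothelium and melanoma cells, had 77.2, 65.7 and 70.3 normalized counts in STING KO libraries and 68.9, 74.8 and 55.6 in control libraries. Cadm1, encoding the nectin-like cell adhesion molecule also named SynCAM1, had 208, 231 and 217 in STING KO libraries and 216, 212 and 213 in control libraries. Ncam1, encoding the neural cell adhesion molecule NCAM (CD56), had 160, 164 and 168 in STING KO libraries and 154, 175 and 161 in control libraries. In each of these genes at least 1 control library lay within or above the STING KO range.

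Their log2 fold changes were 0.10 for Mcam (SE 0.15, limma adjusted p = 0.832), 0.03 for Cadm1 (SE 0.08, adjusted p = 0.907) and 0.01 for Ncam1 (SE 0.09, adjusted p = 0.971). The 95% intervals were 0.854 to 1.35, 0.905 to 1.16 and 0.878 to 1.16 times control. Mcam (ENSMUSG00000032135) lies at 44134469 to 44142727 on the plus strand, Cadm1 (ENSMUSG00000032076) at 47530173 to 47857637 on the plus strand and Ncam1 (ENSMUSG00000039542) at 49502136 to 49798925 on the minus strand. Antisense genes overlap exons of Icam1, Vcam1, Mcam and Ncam1 in the annotation, and without a stated strand setting their reads cannot be told apart; the one next to Ncam1, Gm11149, had at most 31.8 normalized counts.

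For all 7 tested genes the 95% interval of the change lay within 2-fold in both directions, as it did for 95.1% of all genes tested. Their median log2 fold change was 0.03, against -0.0025 over all genes tested, with 5 positive and 2 negative; the signs of Alcam, Cadm1, Mcam and Ncam1 turned under some settings. These intervals bound each gene's difference in the limma fit described above and do not show that the groups are equal. Intervals under other settings were not set against 2-fold. Vcam1 was at -0.51 (SE 0.26) in the authors' test and at -0.67 (SE 0.16) in limma without control replicate 2. With these values its interval can reach past 2-fold.

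**Figure D2:**
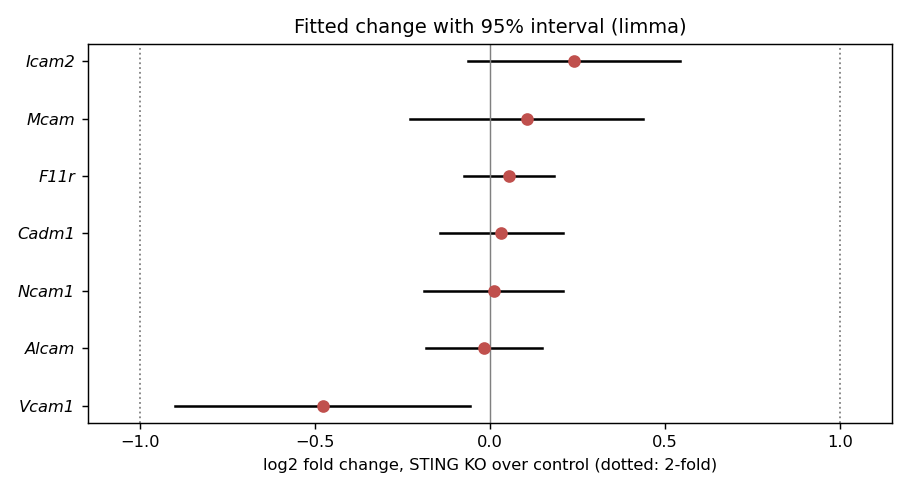
Log2 ratio of STING KO over control levels (horizontal axis) for the 7 tested genes, with points for the fitted value and lines for the 95% interval of limma; dotted lines mark 2-fold. Vcam1, at -0.48, has the widest interval and is the one gene whose interval leaves out 0 before adjustment, while Alcam, Ncam1, Cadm1 and F11r lie within 0.06 of 0.

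Levels can be compared between genes only per length, here as normalized count per kilobase of the longest annotated transcript over all 6 libraries. F11r was highest at 479 ± 20.1 and Alcam next at 408 ± 27.8 (SD, n = 6 for each gene here). Icam2 stood at 70.9 ± 10.4, Cadm1 at 45.3 ± 1.67, Ncam1 at 24.9 ± 1.08, Mcam at 23.0 ± 2.56, Vcam1 at 17.8 ± 4.80 and Icam1 at 1.57 ± 0.816. Neighbours in this order did not overlap in any library, except Ncam1 with Mcam and Mcam with Vcam1. The order therefore did not follow the families: Icam2 and Icam1, both ICAMs, stood in the third and the last place. The longest transcripts of Vcam1 and Cadm1 are not protein coding. With their longest coding transcript, a choice made after seeing the data, Vcam1 was at 21.0 ± 5.66 and Cadm1 at 48.2 ± 1.77, and the order of the means over all 6 libraries was the same. In control libraries alone, Vcam1 was then at 24.6 ± 6.12, beside Ncam1 at 24.8 ± 1.61 and Mcam at 22.2 ± 3.29 (SD, n = 3 each), so these 3 have no settled order.

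**Figure D3:**
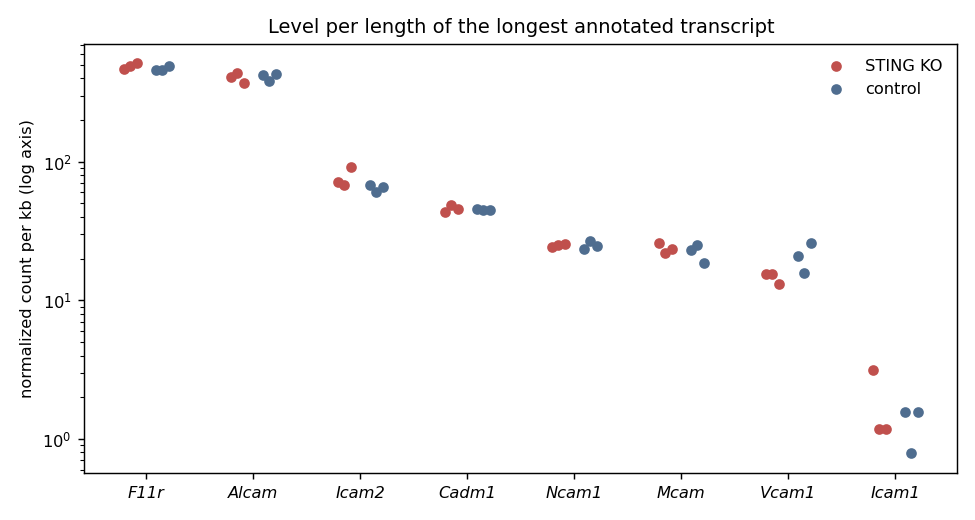
Normalized count per kilobase (log axis) of each gene in each library, STING KO to the left of control, with genes ordered by their mean. F11r and Alcam lie above 368, Icam1 at 0.787 to 3.12, and the other 5 between 13.0 and 90.9.

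Whether Vcam1 departed from its relatives was asked within libraries, by the log2 ratio of Vcam1 to each of the other 6 tested genes; Icam1 was too low for this. The ratio was lower in STING KO than in control in the mean for all 6 genes, by 0.46 (to Alcam) to 0.72 (to Icam2) on the log2 scale. Since all 6 ratios share the Vcam1 values, they are not separate observations. Against Alcam the log2 ratio was -5.28, -5.38 and -5.38 in STING KO libraries and -4.88, -5.17 and -4.60 in control libraries. Against F11r it was -4.21, -4.26 and -4.59 in STING KO libraries and -3.75, -4.18 and -3.53 in control libraries. Both were without overlap, as was the ratio to Icam2, and those to Mcam, Cadm1 and Ncam1 overlapped. The outcome for Icam2 was fixed beforehand, since Vcam1 and Icam2 were each without overlap in opposite directions. The exact two-sided permutation test gave p of 0.1 to 0.3, adjusted over the 6 ratios to 0.2 to 0.3, and 0.1 is the smallest p that 3 libraries against 3 allow.

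The order of the libraries within groups was one that many genes shared. Vcam1 and Alcam were lowest, within each group, in STING KO replicate 3 and control replicate 2, as were 27.7% of all genes tested. Ncam1 was highest in the same 2 libraries, as were 26.6% of all genes tested. These shares, 2 and 1 of the 7 tested genes, are not set apart from those over all genes. Among the genes most like Vcam1 over the 6 libraries, of 10647 with a mean of at least 50, were Ebf1 (Pearson r = 0.988), Napg (0.988), Gpcpd1 (0.985) and Ppp6r3 (0.984). Ebf1, a transcription factor of B cells and mesenchyme, had 1493, 1470 and 1402 normalized counts in STING KO libraries and 1564, 1483 and 1653 in control libraries. These 4 were called in no case (limma adjusted p of 0.738 to 0.742). These likenesses rest on 6 points that share libraries and scaling, and the part of this library order in the Vcam1 values was not tested.

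Of 52 other immunoglobulin-type adhesion genes, 23 reached the minimum, 29 did not, and 7 of those were listed at 0 in all libraries. Limma called 0 of the 23 (1 higher before adjustment), with 13 positive and 10 negative changes and a median log2 fold change of 0.02. The abundant ones included Bsg, the lactate transporter chaperone basigin, at 15653, 15146 and 17323 normalized counts in STING KO and 13433, 15359 and 13691 in control (log2 fold change 0.18, SE 0.07, limma adjusted p = 0.738). L1cam, the neural adhesion molecule L1, was at 5663, 5690 and 5634 in STING KO and 5788, 5748 and 5750 in control. Its groups did not overlap, yet its mean was at 98.3% of control. Pvr, the other gene of this list without overlap, was at 92.1% of control (log2 fold change -0.12, SE 0.06, limma adjusted p = 0.738). These 2 of the 23, both lower in STING KO, stand beside 6.32% of all genes tested. Among genes of this list with a mean of at least 50, the largest changes were in Bcam and Clmp. Bcam is the laminin-binding basal cell adhesion molecule (0.30, SE 0.18) and Clmp a relative of the coxsackievirus receptor (0.20, SE 0.13). Both had a limma adjusted p above 0.7 and overlapping groups.

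Partners that bind these molecules had 14 of 21 genes tested and 0 called by limma, with 1 lower before adjustment. That gene was Fgfr1, at 93.0% of control (limma adjusted p = 0.738), without overlap between groups. Itgal, the alpha chain of the ICAM receptor LFA-1, is known as a leukocyte gene and was at 855, 831 and 784 normalized counts in STING KO and 821, 852 and 829 in control. Its beta chain Itgb2 was at 19.8, 19.9 and 18.1 in STING KO and 15.97, 14.96 and 31.8 in control. Itga4, the VCAM1 receptor chain, stood at 31.1 to 36.8 in STING KO and 28.9 to 36.8 in control, and Itgb1, its beta partner, at 4041 to 4365 in STING KO and 4035 to 4381 in control. Lgals3, the abundant lectin galectin-3, was at 111% of control (log2 fold change 0.15, SE 0.07, limma adjusted p = 0.738), and Itgav, the alpha V integrin chain, at 90.5% (-0.15, SE 0.14, adjusted p = 0.759). Fgb, a fibrinogen chain made by hepatocytes, differed most (log2 fold change 0.65, SE 1.28, adjusted p = 0.884), with 172, 10.95 and 10.04 in STING KO and 10.98, 3.99 and 110 in control. Its high values were in the 2 libraries with the highest hepatocyte marker sums.

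Genes for cytoplasmic linkers, shedding proteases and polysialyltransferases had 16 of 24 tested and 0 called by limma (1 lower before adjustment), with 3 positive and 13 negative changes and a median log2 fold change of -0.05. Msn, moesin, which ties ICAM and VCAM1 tails to actin, was at 7210, 7120 and 6336 in STING KO and 7707, 7285 and 7582 in control (log2 fold change -0.13, SE 0.06, limma adjusted p = 0.738). Tjp1, the ZO-1 scaffold of junctional adhesion molecules, was at 89.6% of control (-0.17, SE 0.12, adjusted p = 0.742), and Adam17, a protease that sheds VCAM1, at 91.8% (-0.12, SE 0.06, adjusted p = 0.738). Of the 16 genes, 11 were lowest within each group in STING KO replicate 3 and control replicate 2, 68.8% against 27.7% of all genes tested. The same held for 9 of the 14 binding partners, 4 of the 23 other immunoglobulin-type genes and 8 of the 8 tested hepatocyte markers, while 9 of those 23 were highest in both libraries. The part of this library order in the negative changes was not tested. St8sia2, which makes the polysialic acid of NCAM, was listed at 0 throughout.

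Adhesion genes outside the immunoglobulin type had 17 of 25 tested and 0 called by limma (1 higher and 2 lower before adjustment), with a median log2 fold change of -0.04. The 2 lower ones were Cd44, at 89.6% of control, and Pcdh1, at 92.4% (limma adjusted p = 0.738 for each), both without overlap between groups. Sele, E-selectin, an endothelial NF-kB target, was listed at 0 in all libraries. Itga3, a laminin receptor chain, was at 470, 513 and 479 in STING KO and 439, 439 and 401 in control (log2 fold change 0.19, SE 0.07, limma adjusted p = 0.738). Selplg, the P-selectin ligand, was at 87.9% of control (-0.19, SE 0.12, adjusted p = 0.739) and Cd24a, a surface glycoprotein, at 87.2% (-0.18, SE 0.17, adjusted p = 0.774).

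**Figure D4:**
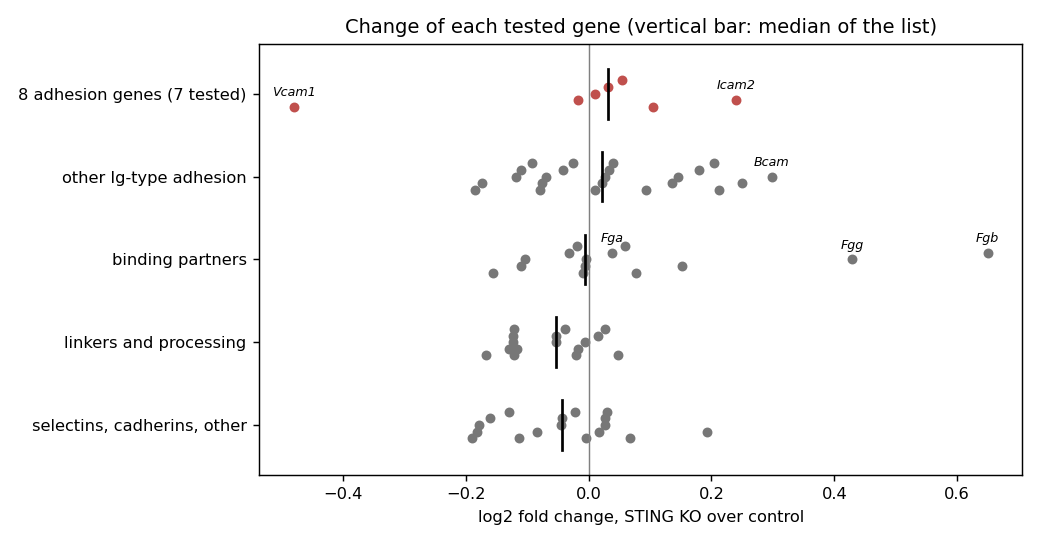
Log2 ratio of STING KO over control levels (horizontal axis) for each tested gene, the adhesion genes described here in the top row and 4 lists of other adhesion genes below; vertical bars are medians. Vcam1 lies at -0.48, further to the left than any gene of the 4 lists, and the fibrinogen gene Fgb lies farthest to the right.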

How the data were processed

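The authors deposited 1 gene table whose 6 sample columns hold a signal, gene counts divided by a size factor of each library; in each column 100% of values were whole multiples, within 0.01, of 1 step. Per the file headers it also holds a log2 fold change by the authors with its standard error and Wald statistic (each a score here), p-value and adjusted p-value. The authors used DESeq2 1.4.5, RSEM 1.2.12, HISAT2 2.0.4 and Bowtie2 2.2.5 with GRCm38 (mm10), per the submitters' processing notes; which annotation and strand setting went with them is not given in the sources used here. Of 27821 rows, 314 repeat an identifier and only the first row was used. Coordinates and lengths came from GENCODE M21 (GRCm38), which holds 27480 of the identifiers.

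Groups came from the sample titles. Genes were tested with limma (version 3.58.1, R 4.3.3), trend on, without covariates. The script was tested on simulated data whose changes were larger than those of the members. That check does not cover changes of their size. Totals divided by the step were 14445540 to 14582221 reads. The members, lists and tests were chosen with earlier results of these data known. Named genes outside the family are the 3 largest changes per list with a mean of at least 50, together with any called. Icam5, Icam4, L1cam, Itgal, Itgb2, Itga4, Itgb1, St8sia2, Sele and the markers Col1a1, Dcn, Cdh5 and Cldn5 were named after their values were seen. So were Fgfr1, Cd44, Pcdh1 and Pvr. Alternatives were other pseudocounts, filters and scalings, limma-voom, a replicate block, leaving out libraries and the authors' test. Count models planned on recovered reads were not run, because the steps lie too near 1 to be told from unscaled counts by the rule used. One of the genes whose pattern was most like that of Vcam1 is not reported here.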

Additional observations from a re-analysis of the deposited data

How the results depend on the processing

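No member was called under any of the 15 alternatives run for the fit, where 0 of the tested genes passed each time. Icam2 and F11r stayed positive and Vcam1 negative under all of them; Icam2 ran from 0.11 to 0.32 and Vcam1 from -0.67 to -0.31 on the log2 scale, with adjusted p of 0.451 to 1 for Icam2 and 0.347 to 1 for Vcam1. Small changes of the other genes turned sign: Alcam was at 0.0015 with upper-quartile scaling and 0.0074 without STING KO replicate 1 and control replicate 3, where Mcam was at -0.0789. Leaving out 1 library gave -0.0777 to 0.0504 for Alcam, -0.0084 to 0.0677 for Cadm1, -0.0308 to 0.0608 for Ncam1 and -0.0177 to 0.196 for Mcam. The count of genes called was 32; it was 18 with the replicate block, 13 without STING KO replicate 1 and control replicate 3, and 21 to 35 when 1 library was left out (21 without control replicate 1). The cause of these moves was not tested, beside the fewer samples. The level of Cadm1 per kilobase was 48.2 with its coding transcript against 45.3. The ratios of Vcam1 to other genes kept their sign in all 8 alternatives, from -0.87 to -0.27. Libraries that share a replicate number did not deviate together, with correlations of -0.183, -0.18 and -0.488, so the replicate block is no pairing. A match in another order was not tested, and no fit took account of one. Hepatocyte marker sums were close in STING KO replicate 1 (4994) and control replicate 3 (5283). The same held for STING KO replicate 2 (631) and control replicate 1 (597), and for STING KO replicate 3 (273) and control replicate 2 (236). edgeR and DESeq2 were not run. Depth limits Icam1, at 2 to 8 reads per library.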
